A study of Mus musculus with 14 samples.

Results

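Transcripts of 9 receptor genes that guide macrophage movement were followed through a sequence of stimuli that mimic a viral and then a bacterial encounter. They are the chemokine receptors Ccr1, Ccr2, Ccr7, Cxcr4 and Cx3cr1, the chemerin-binding receptor Ccrl2, the complement C5a receptor C5ar1, and the formyl peptide receptors Fpr1 and Fpr2. They were taken by gene symbol from a table of 39721 gene entries, and all 9 were found. Fpr2 was present only in an entry shared with its close relative Fpr3, so every Fpr2 value is the value of both genes. Values are FPKM, fragment counts scaled to transcript length and to library size, which can be compared between genes. Entries with a name and at least 1 FPKM in at least 2 of 14 libraries were tested, which kept 11977 entries and 8 of the 9 receptors. Ccr2 never reached 1 FPKM and was not tested.

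The cells were macrophages grown from bone marrow of male C57Bl6/J mice aged 6 to 12 weeks, in medium holding 30% L929-conditioned medium, a source of the growth factor CSF-1. All cells had a first stimulus for 24 h and a second for 2 h or 6 h. At each time there were 4 groups, named here by first and second stimulus as Poly I:C/LPS, Poly I:C/PBS, PBS/LPS and PBS/PBS. Poly I:C, a synthetic double-stranded RNA sensed by TLR3, was given at 100 ng/mL. LPS, from the outer membrane of bacteria, is sensed by TLR4, and its dose as second stimulus is not given in the sources used here. There were 2 libraries in 6 of the groups and 1 library in each PBS/PBS group. Whether replicates are separate animals or separate cultures is not stated, so a p-value here speaks only of the spread among samples, which could be technical.

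All these receptors except Ccrl2 are G protein-coupled receptors that signal mainly through Gi proteins, turn the cell towards a rising concentration of their ligand, and are then switched off by receptor kinases, arrestins and RGS proteins. Ccrl2 binds chemerin but is not known to signal by itself. Resting macrophages and monocytes are known for C5ar1, Cx3cr1 and Ccr2, whereas Ccr7 is best known from dendritic cells, which use it to enter lymph nodes. In cell cultures such as these the transcripts were measured, not the receptors on the surface and not migration.

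Replicates of a group correlated across tested entries at r = 0.974 to 0.988, a correlation over genes, which are not independent replicates. The PBS/LPS pair at 2 h had the most entries over 2-fold apart, 306, against 95 to 217 in the other pairs. Depth is not given with FPKM, and from the spacing of low values the worth of 1 fragment differed by up to 3.08-fold between libraries. Of 10 macrophage markers, Adgre1, Cd68, Csf1r, Itgam, Cd14 and Lyz2 were above 0 in every library, and Cd163 was at 0 in 8 libraries. The summed level of the 10 was lower after Poly I:C. It lay at 8313 to 8669 FPKM in Poly I:C/LPS cells against 16060 to 20647 FPKM in PBS/LPS cells at 2 h, and at 5369 to 5437 FPKM in Poly I:C/LPS cells against 15022 to 16157 FPKM in PBS/LPS cells at 6 h. The 6 stromal markers, led by the collagen genes Col1a1 and Col1a2, summed to 40.1 to 105 FPKM in Poly I:C/LPS cells and 14.4 to 14.98 FPKM in PBS/LPS cells at 2 h. At 6 h they summed to 40.3 to 50.4 FPKM in Poly I:C/LPS cells and 22.3 to 58.8 FPKM in PBS/LPS cells, and the groups overlapped. T cell markers summed to 1.95 to 7.31 FPKM, nearly all of it Cd4, and markers of B cells, NK cells, mast cells or basophils and erythroid cells reached at most 0.913, 0.244, 0.415 and 0.331 FPKM. In such bulk samples fewer cells of a type and less RNA per cell cannot be told apart, and the part of these markers in the receptor results was not tested.

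The receptor with the most transcript changed from condition to condition, and 4 receptors took that place in turn. Fpr2 did so as the entry shared with Fpr3. For these 4, the 250 bases upstream of the RefSeq gene start (GRCm38.p6) are shown from 5′ to 3′ on the strand of the gene, because the results below turn on them. Capitals mark motif matches.
C5ar1, chr7:16259339-16259588, minus strand: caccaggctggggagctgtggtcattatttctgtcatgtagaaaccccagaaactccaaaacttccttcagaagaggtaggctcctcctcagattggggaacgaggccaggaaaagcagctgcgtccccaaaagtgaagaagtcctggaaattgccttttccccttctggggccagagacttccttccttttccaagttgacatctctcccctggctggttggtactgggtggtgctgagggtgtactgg
Ccrl2, chr9:111057519-111057768, minus strand: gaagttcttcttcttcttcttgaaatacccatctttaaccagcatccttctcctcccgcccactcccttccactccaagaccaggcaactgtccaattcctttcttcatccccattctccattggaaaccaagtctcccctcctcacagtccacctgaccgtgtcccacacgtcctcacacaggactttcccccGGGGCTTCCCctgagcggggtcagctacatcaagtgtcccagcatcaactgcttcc
Cxcr4, chr1:128592300-128592549, minus strand: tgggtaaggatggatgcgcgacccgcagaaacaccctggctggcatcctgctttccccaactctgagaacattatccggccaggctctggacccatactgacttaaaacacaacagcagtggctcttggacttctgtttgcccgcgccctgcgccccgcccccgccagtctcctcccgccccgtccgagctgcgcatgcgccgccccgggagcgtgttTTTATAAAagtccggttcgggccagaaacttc
Fpr2, chr17:17887574-17887823, plus strand: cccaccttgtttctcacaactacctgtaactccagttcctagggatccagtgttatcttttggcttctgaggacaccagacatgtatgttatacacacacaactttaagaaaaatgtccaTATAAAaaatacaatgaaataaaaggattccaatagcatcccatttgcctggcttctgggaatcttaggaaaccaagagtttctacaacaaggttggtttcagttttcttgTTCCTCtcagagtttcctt
Both strands were searched for the NF-kB consensus, the interferon-stimulated response element core, which is GAAA 2 times with 2 free letters between, the AP-1 site TGANTCA, the PU.1 core GAGGAA, the CRE TGACGTCA and the TATA box core TATAAA. The Ccrl2 stretch held an NF-kB match on both strands at bases -56 to -47 from the start, a match that 7.25% of 32851 promoter stretches of this length held. It is the stretch of the most upstream of 3 listed Ccrl2 starts, and the stretches of the other two held none of the 6 motifs. The Cxcr4 stretch held the TATA box core on overlapping letters of both strands between bases -32 and -25, and 12.4% of all stretches held that motif. In the Fpr2 stretch the PU.1 core lay at -19 to -14 on the other strand and the TATA box core at -130 to -125, and the PU.1 core was found in 23.3% of all stretches. None of the 6 motifs was spelled in the C5ar1 stretch. Most of that stretch lies inside the assembled C5ar1 locus, whose 5′ end is at base 16259540, so bases upstream of that end were mostly not searched. Of the other members, Ccr1 had an NF-kB match and a PU.1 core and Fpr1 a TATA box core, whereas the stretches of Ccr2 and Cx3cr1 had none of the 6. The Ccr2 stretch also lies mostly inside its assembled locus, which starts at base 124101950. The interferon motif core was found in 2.98%, the AP-1 site in 6.75% and the CRE in 1.55% of all stretches, and in none of the 8 members matched in the sequence table. A match describes letters only and shows no binding.

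Summed over the 9 receptors, transcript was most abundant 2 h after LPS in cells that had first seen Poly I:C, at 1458 and 1512 FPKM, against 436 and 464 FPKM in cells that had first seen PBS. C5ar1 was the highest receptor in both PBS/LPS libraries at 2 h and in the PBS/PBS libraries of both times, with 57.0% to 71.99% of the sum. Ccrl2 was the highest in Poly I:C/LPS cells, with 75.9% and 75.3% of the sum at 2 h and 50.01% and 49.6% at 6 h, and also in Poly I:C/PBS cells at 2 h, with 56.1% and 48.5%. By 6 h in Poly I:C/PBS cells it was Cxcr4, with 38.0% and 41.7%. Fpr2, as the entry shared with Fpr3, led in PBS/LPS cells at 6 h, with 27.9% and 26.1%. C5ar1 followed there with 22.0% and 19.3%, so which single gene led in these cells is uncertain. The 2 replicates of a group always named the same leading receptor.

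**Figure D1:**
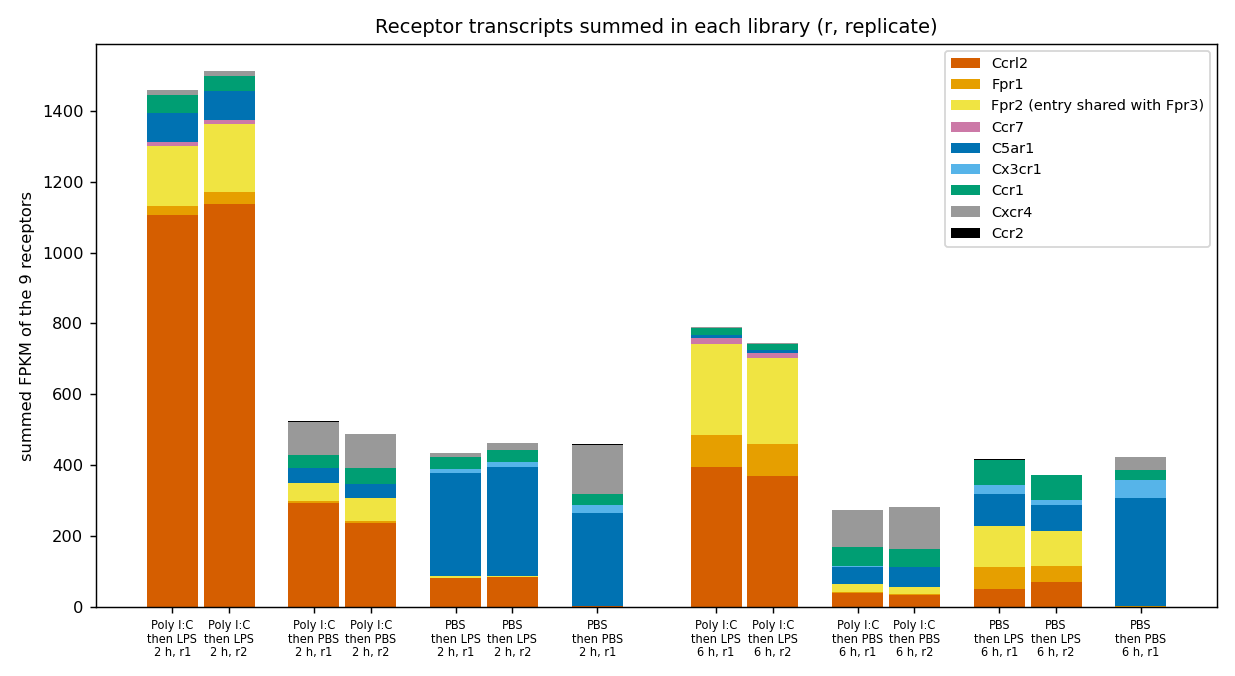
Summed FPKM of the 9 receptors in each of the 14 libraries, stacked by receptor, with the 2 h libraries on the left and the 6 h libraries on the right. The Poly I:C/LPS bars at 2 h reach 1458 and 1512 FPKM, mostly Ccrl2, while C5ar1 fills 57.0% to 71.99% of the PBS/LPS bars at 2 h and of the PBS/PBS bars of both times.

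The main comparison asked how a first stimulus with Poly I:C altered the receptor transcripts present after LPS. At 2 h, 7 of 8 tested receptors differed between Poly I:C/LPS and PBS/LPS, where 61.1% of all 11977 tested entries were called at a limma adjusted p under 0.05. The 5 higher were Ccrl2, Fpr1, Fpr2, Ccr7 and Ccr1, where 32.6% of all entries were higher, and the 2 lower were C5ar1 and Cx3cr1, where 28.5% were lower. By 6 h all 8 tested receptors differed, against 49.6% of all entries, with 5 higher, Ccrl2, Fpr1, Fpr2, Ccr7 and Cxcr4 (23.7% of all entries were higher), and 3 lower, C5ar1, Cx3cr1 and Ccr1 (25.9% were lower). The median tested entry moved by 0.054 at 2 h and by -0.000194 at 6 h on the log2 scale. Comparisons of 1 time share libraries with one another and are not independent.

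**Figure D2:**
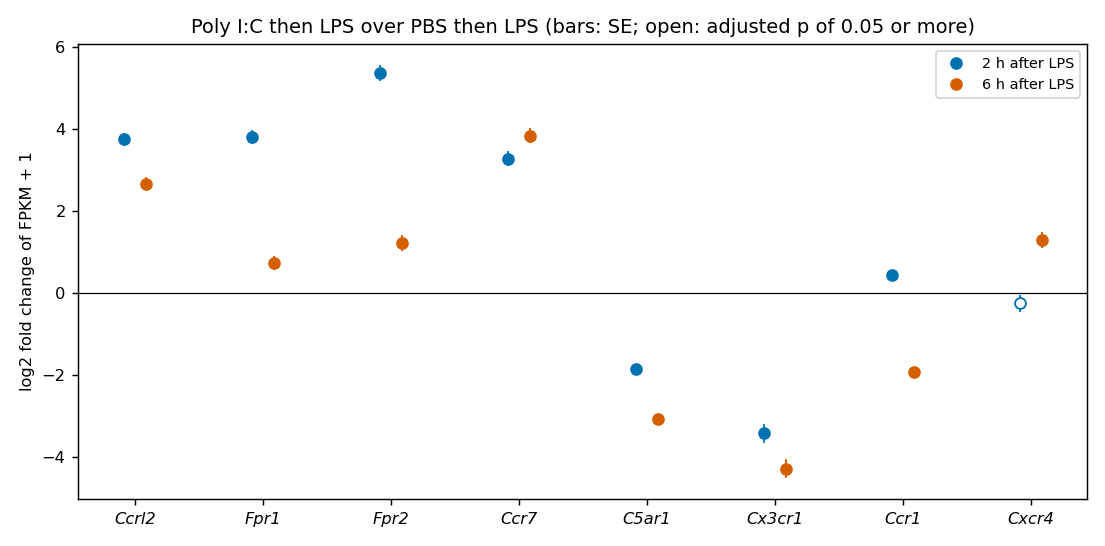
Log2 fold change of FPKM + 1 for Poly I:C/LPS over PBS/LPS, with 1 point per tested receptor and time (blue 2 h, orange 6 h, bars SE, open symbol where the adjusted p was 0.05 or more). Ccrl2, Fpr1, Fpr2 and Ccr7 lie above 0 and C5ar1 and Cx3cr1 below 0 at both times, while Ccr1 lies at 0.44 at 2 h and at -1.94 at 6 h.

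**Figure D3:**
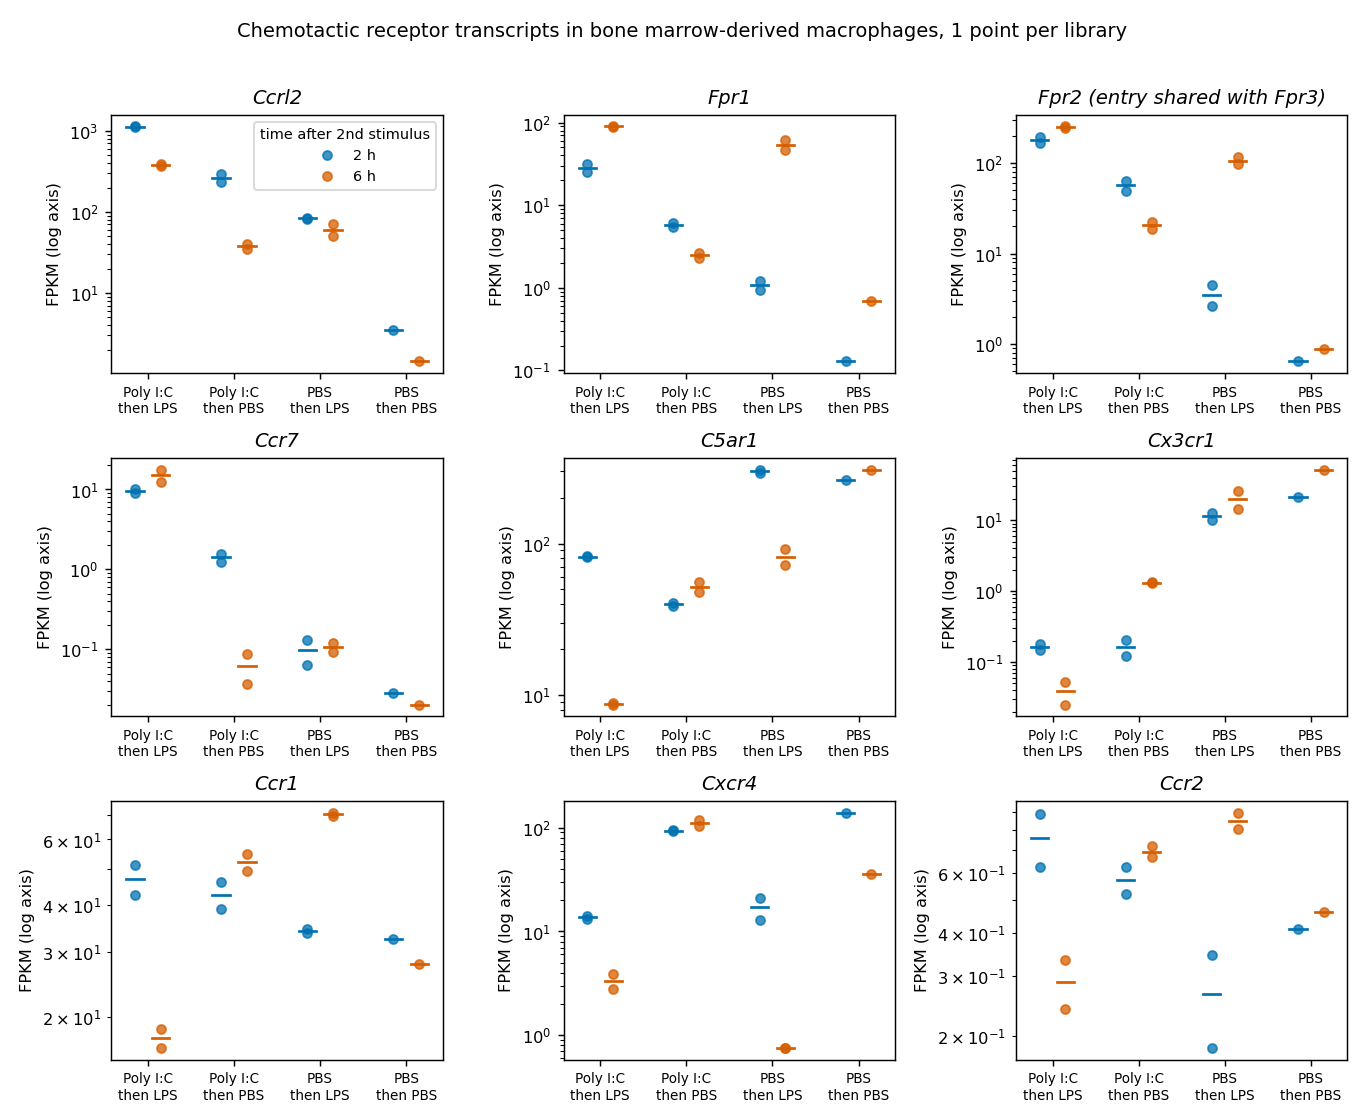
FPKM on a log axis for each receptor in every library (points) with the group mean (bar), for 4 stimulus sequences at 2 h (blue) and 6 h (orange). Ccr7 lies between 8.98 and 17.7 FPKM in Poly I:C/LPS libraries and at or under 1.58 FPKM in the others, and Cx3cr1 lies at or under 1.34 FPKM in every library that received Poly I:C.

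Ccrl2 (chr9:111052809-111108301), which binds the chemoattractant chemerin and presents it to neighbouring cells, showed the highest level of any receptor here. At 2 h it stood at 1107 and 1138 FPKM in Poly I:C/LPS cells, 293.7 and 236.5 FPKM in Poly I:C/PBS cells, 81.6 and 84.4 FPKM in PBS/LPS cells, and 3.48 FPKM in PBS/PBS cells. By 6 h it had 395 and 369 FPKM in Poly I:C/LPS cells, 40.7 and 35.4 FPKM in Poly I:C/PBS cells, 50.02 and 70.6 FPKM in PBS/LPS cells, and 1.43 FPKM in PBS/PBS cells. No library of one group overlapped with another group at either time, and both stimuli together gave the highest level at each. The effect of Poly I:C before LPS was 3.74 ± 0.16 on the log2 scale at 2 h (SE, adjusted p = 4.85e-08) and 2.66 ± 0.16 at 6 h (adjusted p = 1.14e-06). LPS raised it by 2.09 ± 0.16 in cells that had seen Poly I:C and by 4.23 ± 0.20 in cells that had seen PBS at 2 h, and by 3.30 ± 0.16 after Poly I:C and 4.64 ± 0.20 after PBS at 6 h. The LPS response was thus smaller after Poly I:C, with a difference of -2.14 ± 0.26 at 2 h (adjusted p = 0.00120) and of -1.34 ± 0.26 at 6 h (adjusted p = 0.00354), while the level reached was higher. When the 2 PBS/PBS libraries formed a single control group the 6 h difference was -0.90 and missed the threshold (adjusted p = 0.0711). Of the 7 steps in the order of its 8 group levels, all but the last, between the PBS/PBS libraries of 2 h and 6 h, passed the threshold. The assembled locus also spans Gm26409 and Rp31-ps19, which have entries of their own, and Gm43814, whose reads could be part of the Ccrl2 value.

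Fpr1 (chr17:17876074-17883940), a receptor for formylated peptides of bacteria and mitochondria, lay under 1 FPKM in PBS/PBS cells and was higher under each stimulus. At 2 h it stood at 25.0 and 31.2 FPKM in Poly I:C/LPS cells, 5.49 and 6.13 FPKM in Poly I:C/PBS cells, 1.21 and 0.953 FPKM in PBS/LPS cells, and 0.128 FPKM in PBS/PBS cells. By 6 h LPS had brought it to 90.2 and 89.7 FPKM after Poly I:C and to 61.9 and 46.5 FPKM after PBS, against 2.28 and 2.67 FPKM in Poly I:C/PBS cells and 0.687 FPKM in PBS/PBS cells. The LPS libraries with and without Poly I:C did not overlap at either time, and they lay closer together at 6 h. Priming with Poly I:C before LPS gave 3.80 ± 0.17 at 2 h (adjusted p = 5.04e-08) and 0.74 ± 0.17 at 6 h (adjusted p = 0.00468), and the change between the times was -3.07 ± 0.24 (adjusted p = 6.04e-06). In PBS-treated cells the gene thus answered LPS late, with 4.72 ± 0.17 more on the log2 scale at 6 h than at 2 h (adjusted p = 3.11e-08). LPS alone raised it by 0.88 ± 0.21 at 2 h (adjusted p = 0.0159), a call lost when the libraries of 2 h were fitted alone (adjusted p = 0.0581) and when the 2 PBS/PBS libraries formed a single control group, where the value was 0.59. The 3 lowest groups, PBS/LPS at 2 h and PBS/PBS at both times, could not be told apart one from the next.

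Fpr2, a receptor with wide ligand choice that includes serum amyloid A and annexin fragments, was read from the entry shared with Fpr3 (chr17:17887821-17971677). It stood above Fpr1 in every library, with a similar pattern (r = 0.93 of log2(FPKM + 1) over 14 libraries) but not the same course. From 2 h to 6 h in Poly I:C/LPS cells Fpr1 rose by 1.65, a called change, and Fpr2 by 0.46, which was not called. At 2 h the shared entry stood at 169 and 194 FPKM in Poly I:C/LPS cells, 49.9 and 64.0 FPKM in Poly I:C/PBS cells, 4.44 and 2.60 FPKM in PBS/LPS cells, and 0.641 FPKM in PBS/PBS cells. Its 6 h values were 256 and 244 FPKM in Poly I:C/LPS cells, 22.6 and 18.7 FPKM in Poly I:C/PBS cells, 116 and 97.6 FPKM in PBS/LPS cells, and 0.879 FPKM in PBS/PBS cells. Poly I:C alone thus held Fpr2 above the PBS/LPS level at 2 h and below it at 6 h. Poly I:C before LPS gave the largest change of any tested receptor at 2 h on the log2(FPKM + 1) scale, 5.36 ± 0.20 (adjusted p = 1.95e-08). That scale compresses the folds of the weaker Ccr7 and Cx3cr1. At 6 h the same comparison gave 1.22 ± 0.20 (adjusted p = 6.58e-04), a change of -4.14 ± 0.29 (adjusted p = 2.82e-06). LPS raised the entry in PBS-treated cells by 1.43 ± 0.25 at 2 h and 5.84 ± 0.25 at 6 h. In the order of group levels, Poly I:C/LPS at 6 h and at 2 h could not be told apart (adjusted p = 0.0944), nor could the PBS/PBS libraries (adjusted p = 0.914). Neutrophils carry both formyl peptide receptors. The 10 neutrophil markers summed to 0.603 to 1.07 FPKM in Poly I:C/LPS cells against 2.13 to 2.21 FPKM in PBS/LPS cells at 2 h, and to 7.25 to 8.36 FPKM in Poly I:C/LPS cells against 1.73 to 2.12 FPKM in PBS/LPS cells at 6 h. Most of the 6 h sum was S100a8, at 7.01 and 5.81 FPKM in Poly I:C/LPS cells and 1.70 and 1.16 FPKM in PBS/LPS cells. Camp followed, at 1.32 and 1.39 FPKM in Poly I:C/LPS cells and 0.362 and 0.473 FPKM in PBS/LPS cells. S100a9, Elane and Retnlg, also among the 10, were at 0 in all 14 libraries, and the part of the neutrophil markers in the result was not tested.

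Ccr7 (chr11:99144196-99155077), the receptor for CCL19 and CCL21, exceeded 1.58 FPKM after both stimuli in sequence and in no other group. It stood at 2 h at 8.98 and 10.3 FPKM in Poly I:C/LPS cells, 1.58 and 1.25 FPKM in Poly I:C/PBS cells, 0.0639 and 0.130 FPKM in PBS/LPS cells, and 0.0283 FPKM in PBS/PBS cells. At 6 h it stood at 17.7 and 12.3 FPKM in Poly I:C/LPS cells, 0.0886 and 0.0367 FPKM in Poly I:C/PBS cells, 0.0917 and 0.122 FPKM in PBS/LPS cells, and 0.0204 FPKM in PBS/PBS cells. The 8 libraries under 1 FPKM lay at 1 to 4 steps of the lowest value, the size of single fragments, so folds against them rest on almost no reads. Against PBS before LPS, Poly I:C gave 3.27 ± 0.18 at 2 h (adjusted p = 2.01e-07) and 3.83 ± 0.18 at 6 h (adjusted p = 2.89e-07). LPS in PBS-treated cells gave 0.093 ± 0.22 at 2 h (adjusted p = 0.835) and 0.12 ± 0.22 at 6 h (adjusted p = 0.712), and LPS after Poly I:C gave 2.14 ± 0.18 and 3.89 ± 0.18. The LPS response exceeded that of PBS-treated cells by 2.05 ± 0.28 at 2 h (adjusted p = 0.00293) and 3.77 ± 0.28 at 6 h (adjusted p = 1.12e-05). With a pseudocount of 0.1 the 2 h value was 2.09 and missed the threshold (adjusted p = 0.0882). Poly I:C alone gave 1.23 ± 0.22 at 2 h (adjusted p = 0.00118) and 0.058 ± 0.22 at 6 h (adjusted p = 0.870). The levels of the 5 lowest groups could not be told apart one from the next. The 8 dendritic cell markers summed to 15.9 to 16.5 FPKM in Poly I:C/LPS cells and 4.08 to 4.11 FPKM in PBS/LPS cells at 2 h, and to 6.49 to 8.61 FPKM in Poly I:C/LPS cells and 8.84 to 10.3 FPKM in PBS/LPS cells at 6 h. The 2 h sum was carried by Xcr1, at 8.94 and 7.92 FPKM in Poly I:C/LPS cells and 1.68 and 1.26 FPKM in PBS/LPS cells. It was also carried by Clec9a, at 6.07 and 5.58 FPKM in Poly I:C/LPS cells and 0.407 and 0.210 FPKM in PBS/LPS cells. Flt3 stayed at or under 0.200 FPKM and Cd209a was at 0 in all 14 libraries. The part of these markers in the result was not tested.

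C5ar1 (chr7:16246743-16259540), the receptor for the complement fragment C5a, moved the other way. Its 2 h values were 82.3 and 81.3 FPKM in Poly I:C/LPS cells, 40.3 and 39.0 FPKM in Poly I:C/PBS cells, 290.9 and 307.4 FPKM in PBS/LPS cells, and 261.3 FPKM in PBS/PBS cells. At 6 h it stood at 8.83 and 8.64 FPKM in Poly I:C/LPS cells, 47.7 and 55.9 FPKM in Poly I:C/PBS cells, 91.6 and 72.1 FPKM in PBS/LPS cells, and 304.8 FPKM in PBS/PBS cells. Every library that received Poly I:C was below every library of its time that received PBS first, and the lowest level followed both stimuli at 6 h. The summed macrophage markers given above, led by Lyz2, had the same order, but not every marker of that list did. The part of these markers in the result was not tested. The Poly I:C effect before LPS was -1.86 ± 0.13 at 2 h (adjusted p = 9.52e-07) and -3.08 ± 0.13 at 6 h (adjusted p = 1.84e-07), a change of -1.22 ± 0.18 (adjusted p = 4.13e-04). LPS after Poly I:C raised C5ar1 by 1.03 ± 0.13 at 2 h (adjusted p = 2.79e-04) and lowered it at 6 h, with -2.44 ± 0.13 (adjusted p = 2.75e-07). LPS alone gave 0.19 ± 0.16 at 2 h (adjusted p = 0.453) and -1.89 ± 0.16 at 6 h (adjusted p = 5.92e-06). The difference between these LPS responses was 0.83 ± 0.20 at 2 h (adjusted p = 0.0493), a call lost without any 1 of 9 libraries, with values of 0.79 to 0.86, and was -0.54 ± 0.20 at 6 h (adjusted p = 0.0704), which passed at -0.71 without PBS/LPS replicate 2 of 6 h, at -0.65 when the 2 PBS/PBS libraries formed a single control group (adjusted p = 0.0245) and at -0.64 with a pseudocount of 0.1 (adjusted p = 0.0399). Levels of PBS/LPS at 2 h and of the PBS/PBS libraries could not be told apart. Neither could Poly I:C/LPS at 2 h and PBS/LPS at 6 h (adjusted p = 0.959). Poly I:C/PBS at its 2 times differed by 0.37 and just missed the threshold (adjusted p = 0.0501). That difference passed at 0.38 with scaling by median of ratios (limma adjusted p = 0.0441). It also passed with single-gene entries (limma adjusted p = 0.0490), and was 0.49 without Poly I:C/PBS replicate 1 of 6 h.

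Cx3cr1 (chr9:119888512-120068283), the fractalkine receptor of monocytes and resident macrophages, was nearly lost after Poly I:C. Levels at 2 h were 0.177 and 0.147 FPKM in Poly I:C/LPS cells, 0.201 and 0.123 FPKM in Poly I:C/PBS cells, 10.1 and 12.9 FPKM in PBS/LPS cells, and 21.5 FPKM in PBS/PBS cells. At 6 h it stood at 0.0250 and 0.0522 FPKM in Poly I:C/LPS cells, 1.34 and 1.30 FPKM in Poly I:C/PBS cells, 25.8 and 14.3 FPKM in PBS/LPS cells, and 51.9 FPKM in PBS/PBS cells. The lowest 6 libraries, all of them with Poly I:C, lay at 1 to 9 steps of the lowest value. With Poly I:C before LPS the log2 change was -3.42 ± 0.23 at 2 h (adjusted p = 8.35e-07) and -4.28 ± 0.23 at 6 h (adjusted p = 5.48e-07), and Poly I:C alone gave -4.27 ± 0.28 and -4.51 ± 0.28. LPS alone lowered it at 6 h, with -1.39 ± 0.28 (adjusted p = 0.00266), a value of -0.77 when the 2 PBS/PBS libraries formed a single control group (adjusted p = 0.0849). At 2 h LPS alone gave -0.86 ± 0.28 (adjusted p = 0.0702), which passed the threshold at -1.02 without PBS/LPS replicate 2 of 2 h, at the same value without either PBS/LPS replicate of 6 h, and at -1.47 when the 2 PBS/PBS libraries formed a single control group (adjusted p = 0.00957). The difference between the LPS responses was 0.86 ± 0.37 at 2 h (adjusted p = 0.292) and 0.22 ± 0.37 at 6 h (adjusted p = 0.690). The 6 h value turned to -1.94 with a pseudocount of 0.1 (adjusted p = 0.0145). In the order of levels, PBS/LPS at 6 h and both PBS/PBS libraries could not be told apart one from the next. Neither could Poly I:C/LPS and Poly I:C/PBS at 2 h and Poly I:C/LPS at 6 h, the 3 lowest. With a pseudocount of 0.1, Poly I:C/PBS at 2 h lay above Poly I:C/LPS at 6 h (limma adjusted p = 0.0417). The change in Poly I:C/LPS cells from 2 h to 6 h was then -0.92 (limma adjusted p = 0.0382). The assembled locus spans 5 further coding genes, Csrnp1, Gorasp1, Ttc21a, Wdr48 and Xirp1, each with an entry of its own.

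Ccr1 (chr9:123961114-123968722), a receptor for CCL3, CCL5 and related chemokines, changed direction between the times. The 2 h libraries held 51.2 and 42.6 FPKM in Poly I:C/LPS cells, 39.0 and 46.2 FPKM in Poly I:C/PBS cells, 34.5 and 33.7 FPKM in PBS/LPS cells, and 32.4 FPKM in PBS/PBS cells. At 6 h it stood at 18.6 and 16.6 FPKM in Poly I:C/LPS cells, 54.8 and 49.5 FPKM in Poly I:C/PBS cells, 69.4 and 70.7 FPKM in PBS/LPS cells, and 27.8 FPKM in PBS/PBS cells. Each stimulus alone left Ccr1 above the PBS/PBS library at 6 h, and both in sequence left it below. Set against PBS, Poly I:C before LPS gave 0.44 ± 0.13 at 2 h (adjusted p = 0.0127) and -1.94 ± 0.13 at 6 h (adjusted p = 1.80e-06), a change of -2.38 ± 0.18 (adjusted p = 5.65e-06). Without replicate 1 of Poly I:C/LPS the 2 h value was 0.31 and missed the threshold (adjusted p = 0.117). At 6 h LPS alone raised it by 1.30 ± 0.16 (adjusted p = 8.85e-05), Poly I:C alone by 0.88 ± 0.16 (adjusted p = 0.00182), and LPS after Poly I:C gave -1.52 ± 0.13 (adjusted p = 6.72e-06). The LPS responses differed by -2.82 ± 0.20 (adjusted p = 8.39e-06) at 6 h and by 0.064 ± 0.20 at 2 h (adjusted p = 0.918). The 6 middle groups in the order of its levels could not be told apart one from the next, while PBS/LPS at 6 h stood above and Poly I:C/LPS at 6 h below them.

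Cxcr4 (chr1:128588199-128592342), the CXCL12 receptor that holds leukocytes in the bone marrow, was lowered by LPS whatever came first. Values at 2 h were 13.3 and 14.2 FPKM in Poly I:C/LPS cells, 92.8 and 94.3 FPKM in Poly I:C/PBS cells, 12.9 and 21.2 FPKM in PBS/LPS cells, and 138.7 FPKM in PBS/PBS cells. At 6 h it stood at 2.77 and 3.88 FPKM in Poly I:C/LPS cells, 104.2 and 117.7 FPKM in Poly I:C/PBS cells, 0.755 and 0.759 FPKM in PBS/LPS cells, and 35.4 FPKM in PBS/PBS cells. LPS libraries lay below all libraries without LPS at each time. LPS after Poly I:C gave -2.68 ± 0.20 at 2 h (adjusted p = 1.21e-05) and -4.70 ± 0.20 at 6 h (adjusted p = 1.06e-07), and LPS alone -2.99 ± 0.25 and -4.37 ± 0.25. These LPS responses differed by 0.31 ± 0.32 at 2 h (adjusted p = 0.703) and -0.33 ± 0.32 at 6 h (adjusted p = 0.484). The LPS libraries with and without Poly I:C overlapped at 2 h, with an effect of Poly I:C of -0.25 ± 0.20 (adjusted p = 0.308), which was -0.59 without PBS/LPS replicate 1 (adjusted p = 0.0103) and 0.091 without its replicate 2. At 6 h the Poly I:C/LPS libraries were higher than the PBS/LPS ones, by 1.29 ± 0.20 (adjusted p = 4.86e-04), though both levels were low. Poly I:C alone gave 1.62 ± 0.25 at 6 h (adjusted p = 7.05e-04), which rests on a PBS/PBS library at 35.4 FPKM where that of 2 h stood at 138.7 FPKM. When these 2 libraries formed a single control group it was 0.65 (adjusted p = 0.281). The 3 highest groups, Poly I:C/PBS at both times and PBS/PBS at 2 h, could not be told apart one from the next, nor could Poly I:C/LPS and PBS/LPS at 2 h.

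Ccr2 (chr9:124101950-124113557), the CCL2 receptor that brings monocytes out of the bone marrow, was low throughout, with a lowest value of 0.185, a median of 0.572 and a highest value of 0.897 FPKM over the 14 libraries. Its values were 0.893 and 0.625 FPKM in Poly I:C/LPS cells, 0.622 and 0.522 FPKM in Poly I:C/PBS cells, 0.185 and 0.345 FPKM in PBS/LPS cells and 0.413 FPKM in PBS/PBS cells at 2 h. They were 0.334 and 0.241 FPKM in Poly I:C/LPS cells, 0.717 and 0.665 FPKM in Poly I:C/PBS cells, 0.807 and 0.897 FPKM in PBS/LPS cells and 0.463 FPKM in PBS/PBS cells at 6 h. With no filter on low values the effect of Poly I:C before LPS was 0.47 at 2 h (adjusted p = 0.00595) and -0.53 at 6 h (adjusted p = 0.00535).

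Each stimulus was also compared with PBS by itself. LPS alone changed 4 of 8 tested receptors at 2 h, where 15.9% of all entries were called, and 7 of 8 at 6 h, where 43.4% were called. LPS after Poly I:C changed 6 of 8 at 2 h (22.8% of all entries) and 8 of 8 at 6 h (43.9%). Poly I:C alone changed 6 of 8 at 2 h (47.3%) and 7 of 8 at 6 h (34.5%). The interaction, which asks whether the LPS response differed after Poly I:C, was called for 4 of 8 at 2 h (4.29% of all entries) and 4 of 8 at 6 h (29.4%). At 2 h Ccr7, C5ar1 and Fpr1 had the larger response after Poly I:C and Ccrl2 the smaller. At 6 h Ccr7 had the larger response and Ccrl2 and Fpr2 the smaller. Ccr1 at 6 h had responses of opposite direction, -1.52 after Poly I:C and 1.30 after PBS. The 2 h calls of C5ar1 and Fpr1 were lost under several settings, and that of Fpr1, 1.21 ± 0.27 (adjusted p = 0.0326), turned to -0.11 with a pseudocount of 0.1 (adjusted p = 0.913). The interaction of Fpr2 at 6 h was -2.30 ± 0.32 (adjusted p = 4.89e-04). Each comparison with PBS/PBS rests on 1 library of that group, whose spread was taken to be that of the other groups.

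**Figure D4:**
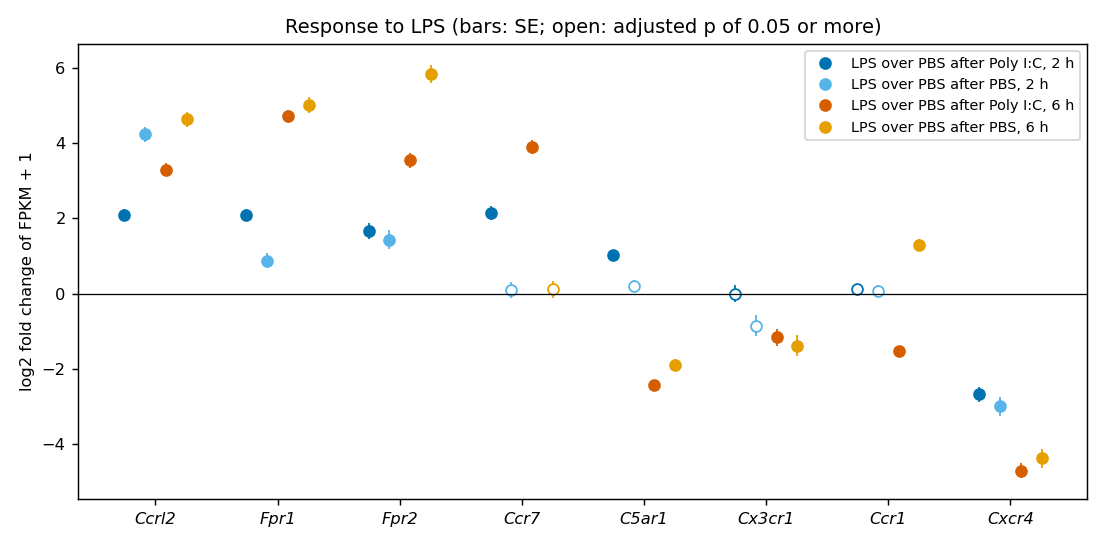
Log2 fold change of FPKM + 1 for LPS over PBS as second stimulus, after Poly I:C (dark symbols) and after PBS (light symbols), at 2 h (blue) and 6 h (orange), with SE bars and open symbols where the adjusted p was 0.05 or more. Cxcr4 falls in all 4 series, Ccr7 is called after Poly I:C and not after PBS, and Ccr1 at 6 h lies at -1.52 after Poly I:C and 1.30 after PBS.

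The effect of Poly I:C before LPS differed between 6 h and 2 h for 6 of 8 receptors, where 44.4% of all entries were called. It was lower at 6 h for Ccr1, Ccrl2, C5ar1, Fpr1 and Fpr2 and higher for Cxcr4. For Ccr7 the difference was 0.56 ± 0.25 (adjusted p = 0.0999), with 0.81 and an adjusted p of 0.0283 without Poly I:C/LPS replicate 2 of 6 h. For Cx3cr1 it was -0.87 ± 0.33 (adjusted p = 0.0537), with -1.03 and -1.27 past the threshold without replicate 2 of PBS/LPS at 2 h and at 6 h, -1.67 with a pseudocount of 0.1 (adjusted p = 0.0117), and the same value past it with no intensity trend (adjusted p = 0.0497). Over time itself, between 6 h and 2 h, 6 of 8 receptors differed in Poly I:C/LPS cells (40% of all entries), 5 of 8 in Poly I:C/PBS cells (30.4%), 7 of 8 in PBS/LPS cells (49.4%) and 1 of 8 in PBS/PBS cells (1.59%), where 1 library stood against 1. In PBS/PBS cells that 1 was Cxcr4, at -1.94 ± 0.29 (adjusted p = 0.0129). The call of Ccr7 in Poly I:C/LPS cells, 0.57 (adjusted p = 0.0281), was lost with a pseudocount of 0.1 (adjusted p = 0.202). It was also lost without either Poly I:C/LPS replicate of 2 h, with 0.48 and 0.66, and without replicate 1 of 6 h, with 0.33 (adjusted p = 0.227). In Poly I:C/PBS cells the 4 receptors that Poly I:C alone had raised at 2 h were lower at 6 h. The changes were -2.76 ± 0.16 for Ccrl2, -1.41 ± 0.20 for Fpr2, -1.18 ± 0.18 for Ccr7 and -0.97 ± 0.17 for Fpr1. Cx3cr1 gained 1.00 ± 0.23 there (adjusted p = 0.00949), which was 0.95 without Poly I:C/PBS replicate 2 of 2 h and missed the threshold (adjusted p = 0.0584). In PBS/LPS cells the change of Ccrl2, -0.48 ± 0.16 (adjusted p = 0.0348), lost its call without any 1 of 7 libraries, with -0.23 without PBS/LPS replicate 1 of 6 h. That of Cx3cr1, 0.71 (adjusted p = 0.0280), was lost without PBS/LPS replicate 1 of 6 h, with 0.30 (adjusted p = 0.230), and without replicate 1 of 2 h, with 0.54 (adjusted p = 0.145). It was lost too with no filter (adjusted p = 0.0703) and with a pseudocount of 0.1 (adjusted p = 0.0699).

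The patterns of other genes over the 14 libraries were compared with each receptor by Pearson r of log2(FPKM + 1), among 8380 entries, as a description. Ccrl2 ran most like Brd2 (r = 0.99), Clec4e (0.98) and Ccdc88b (0.97), Ccr7 like Cybb (0.99), Kif1b (0.99) and Lrrc63 (0.98), and Cxcr4 like Cebpa (0.99), Ctns (0.97) and Slc26a11 (0.97). Nearest to C5ar1 were Ywhah, Prkd3 and Csf1r, the CSF-1 receptor (0.96 each), and among the nearest to Cx3cr1 were Lpl and Tram1 (0.97 each). For Fpr1 they were Ccdc55, Lhx2 and Zeb1 (0.98 each), for Fpr2 Rnf135, Trim30c and Enpp4 (0.98 each), and for Ccr1 Trpv2 (0.96), Scarb2 (0.96) and Fbxo4 (0.91). The libraries share 8 conditions, so these values mostly compare group means.

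Of 20 listed ligand genes 16 were tested, and under Poly I:C before LPS 7 were higher and 4 lower at 2 h, where 61.1% of all entries were called, with a median of 0.53 against 0.054 over all entries. At 6 h 3 were higher and 9 lower, where 49.6% of all entries were called, with a median of -0.71. Here and below, mean FPKM of list genes are given ± SD of the libraries of a group, and log2 changes ± SE. Ccl5, a ligand of Ccr1, stood at 38627 ± 958 FPKM in Poly I:C/LPS cells and 1409.5 ± 584 FPKM in PBS/LPS cells at 2 h, a log2 fold change of 4.84 ± 0.25. Ccl3, also a Ccr1 ligand, rose in its own entry by 2.96 ± 0.47, and it has a further entry merged with Ccl4. Ccl8 rose by 3.72 ± 0.34 and Ccl12, a Ccr2 ligand, by 2.05 ± 0.21. Without LPS, Ccl5 already stood at 26213 ± 1053 FPKM in Poly I:C/PBS cells at 2 h. The LPS response of Ccl5 was smaller after Poly I:C, with a difference of -5.07 ± 0.40 at 2 h (limma adjusted p = 9.10e-05). By 6 h Ccl7, Ccl12 and Ccl2, all Ccr2 ligands, were lower in Poly I:C/LPS cells, with -2.95 ± 0.18, -1.81 ± 0.21 and -1.63 ± 0.17, as was the shared entry that holds Ccl6, with -2.30 ± 0.13. LPS alone raised 10 of 16 at 2 h (15.9% of all entries were called in either direction) and 11 of 16 at 6 h (43.4%), when Saa3, of the serum amyloid A family, stood at 8011 ± 1168 FPKM against 6.71 FPKM in the PBS/PBS library.

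Among 38 other chemoattractant receptors, 21 were tested. Under Poly I:C before LPS 11 were higher and 7 lower at 2 h (median 0.48, with 61.1% of all entries called) and 5 higher and 12 lower at 6 h (median -0.60, with 49.6% called). The sugar-nucleotide receptor P2ry14 and the ADP receptor P2ry13 rose by 4.51 ± 0.18 and 4.47 ± 0.22 at 2 h, whereas P2ry6, a receptor for UDP, fell by 2.18 ± 0.12. At 6 h Cxcr3, known from T cells, was higher at 2.38 ± 0.18, and S1pr2, P2ry6 and the complement C3a receptor C3ar1 were lower, at -2.40 ± 0.15, -2.24 ± 0.12 and -2.19 ± 0.12. C3ar1 stood at 126 ± 5.74 FPKM in Poly I:C/LPS cells and 578 ± 15.7 FPKM in PBS/LPS cells. LPS alone gave 8 higher and 4 lower at 2 h (15.9% of all entries called) and 15 higher and 3 lower at 6 h (43.4%). The 5 atypical chemokine receptors, which take up chemokines without G protein signalling, all stayed under the filter.

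Downstream of the receptors, 29 signalling genes were tested, and under Poly I:C before LPS 13 were higher and 8 lower at 2 h (median 0.32, with 61.1% of all entries called) and 1 higher and 19 lower at 6 h (median -0.64, with 49.6% called). The 1 higher at 6 h was Prex1, a Rac activator that answers G protein beta-gamma subunits and phosphoinositides, with 1.49 ± 0.095 at 2 h and 1.20 ± 0.095 at 6 h. Pak1, a kinase that acts on the cytoskeleton below Rac, was lower, with -1.48 ± 0.18 at 2 h and -2.07 ± 0.18 at 6 h, and the actin-binding Coro1a stood at -1.43 ± 0.20 at 6 h. Of 16 tested genes that switch receptors off, 7 were higher and 5 lower at 2 h (median 0.23) and 4 higher and 6 lower at 6 h (median 0.14), against the same 61.1% and 49.6% of all entries called. Rgs1, which speeds the end of Gi signalling, stood at 2309 ± 146 FPKM in Poly I:C/LPS cells and 79.5 ± 11.5 FPKM in PBS/LPS cells at 2 h, a log2 fold change of 4.85 ± 0.21, and at 754 ± 25.7 FPKM in Poly I:C/LPS cells and 53.7 ± 9.55 FPKM in PBS/LPS cells at 6 h, 3.80 ± 0.21. Rgs3 rose by 4.37 ± 0.20 at 2 h. Rgs2 was higher at 2 h, 2.43 ± 0.21, and lower at 6 h, -1.92 ± 0.21, when Rgs14 and Rgs18 were lower too, at -2.56 ± 0.17 and -2.19 ± 0.20. Of the genes named from these lists, P2ry13, P2ry14, P2ry6, Ccl2, Coro1a and Rgs3 overlap an annotated gene of the other strand, and whether strand was used in counting is not stated, so their levels are uncertain.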

How the data were processed

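Polyadenylated RNA of 14 macrophage samples was sequenced in stranded, paired 76 bp reads, per the labels' protocols. TopHat2, Cufflinks and Cuffnorm are named without versions in the submitters' processing notes, with build mm9. The deposited FPKM table gives assembled loci, and those of 3 receptors had exactly the start and end of the GRCm38 gene (GENCODE M21), so coordinates are given as GRCm38. Of its 39721 entries, 1859 had no name and 1066 named several genes. Depth is unknown, so no counting interval is given.

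Members and gene lists were chosen with earlier results of these data known. FPKM were tested as log2(FPKM + 1) with limma 3.58.1 in R 4.3.3, 1 mean per group over 14 libraries, a trend with intensity, 6 residual df and Benjamini-Hochberg adjustment over 11977 entries. Fold changes on this scale understate changes of weak genes. Of list genes, up to 4 called ones were named per comparison by size, where a group averaged 5 FPKM or more and groups did not overlap. Some genes that this rule or the likeness of patterns would name are not reported here. Merged entries that hold a listed gene were counted. Other settings tried were no filter, no trend, scaling by median of ratios, 0.1 as pseudocount, a replicate block, each time fitted by itself, 1 joint control group of the 2 PBS/PBS libraries, single-gene entries, and leaving out each replicate. On simulated data with 200 changed entries among 11977, 2 libraries against 2 recovered 81% of log2 changes of 1 and 100% of changes of 2 with 2.16% false calls, and 2 against 1 recovered 75% and 98% with 5.98% false calls. The changed entries were drawn only from those well expressed in the reference group, so these rates do not cover genes weak there, such as Ccr7, Fpr1 and Fpr2. Far more entries were called in the data, 7313 for Poly I:C before LPS at 2 h, so the rates may not carry over. Python 3.11.15 was used for tables and figures.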

Additional observations from a re-analysis of the deposited data

Results flagged for a closer look

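For 6 receptors the effect of Poly I:C before LPS differed between 6 h and 2 h in a test of the difference itself, with limma and an adjustment over all 11977 entries. The difference, 6 h minus 2 h on the log2 scale, was -4.14 ± 0.29 for the entry of Fpr2 and Fpr3 (SE, adjusted p = 2.82e-06) and -3.07 ± 0.24 for Fpr1 (adjusted p = 6.04e-06). It was -2.38 ± 0.18 for Ccr1 (adjusted p = 5.65e-06), the 1 receptor of these whose effect was called in opposite directions at the 2 times. Ccrl2 gave -1.08 ± 0.23 (adjusted p = 0.00390) and C5ar1 -1.22 ± 0.18 (adjusted p = 4.13e-04), each with the same direction at both times. Cxcr4 gave 1.54 ± 0.29 (adjusted p = 0.00171), from an effect that was not called at 2 h.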

How the results depend on the processing

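Of 2273 receptor fold changes refitted under an alternative, 2175 kept their direction and their side of the threshold, 47 lost the call, 31 gained one and 20 turned round. With a pseudocount of 0.1, interactions turned to -0.11 for Fpr1 and -0.56 for Fpr2 at 2 h and to 0.34 for Cxcr4 and -1.94 for Cx3cr1 at 6 h, and the receptors called were 1 for the interaction at 2 h, 7 at 6 h (4 each in the fit reported) and 3 for PBS/PBS over time (1 as reported). Scaling by median of ratios turned Cx3cr1 for LPS after Poly I:C at 2 h to -0.000442. With the 2 PBS/PBS libraries as a joint control group, Cxcr4 turned to 0.41 for Poly I:C alone at 2 h and to -0.66 and 0.64 for the interaction at 2 h and 6 h, the interaction turned to -0.044 for Ccr1 at 2 h and -0.39 for Cx3cr1 at 6 h, and LPS alone at 2 h called 2873 entries (1899 as reported). The libraries of 1 time alone gave 1176 entries for that comparison, 195 for the interaction at 2 h (514 as reported) and 2 receptors for it. No filter gave 2 receptors for the interaction at 2 h and 415 entries for PBS/PBS over time (191 as reported). The cause was not tested.

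A replicate block gave 2 receptors for the interaction at 2 h and 83 entries for PBS/PBS over time. The labels number replicates but pair none, and over 15 pairs of groups the deviations of replicates with the same number had r of -0.19 to 0.078.

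Leaving out 1 library at a time put values on both sides of 0: -0.59 to 0.091 for Cxcr4 under Poly I:C before LPS at 2 h, -0.048 to 0.049 for Cx3cr1 under LPS after Poly I:C at 2 h, -0.031 to 0.057 for Ccr7 in PBS/LPS cells over time, and for interactions -0.066 to 0.19 for Ccr1, -0.027 to 0.65 for Cxcr4 and -0.065 to 0.53 for Fpr2 at 2 h and -0.18 to 0.63 for Cx3cr1 at 6 h. It gave 2 to 4 receptors for the interaction at 2 h, with 2 without Poly I:C/LPS replicate 2 or either Poly I:C/PBS replicate of 2 h or either Poly I:C/LPS replicate of 6 h, and 1 to 2 receptors for PBS/PBS over time, with 2 without either PBS/LPS replicate of 6 h. Entries called were 1626 to 3703 for LPS alone at 2 h and 276 to 1637 for the interaction at 2 h, both highest without PBS/LPS replicate 2. They were 1543 to 3699 for LPS after Poly I:C at 2 h, lowest without a Poly I:C library of that time, 2013 to 4602 for Poly I:C/PBS over time, and 88 to 478 for PBS/PBS over time, highest without either PBS/LPS replicate of 2 h (477 and 478).

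Precision is limited by 2 libraries a group, by 1 PBS/PBS library a time, and by levels of few fragments for Ccr7 and Cx3cr1 in their low groups, and by the low level of Ccr2.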
